A study of Mus musculus with 12 samples.

Results

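The 9 genes described here are Tead1, a DNA-binding TEAD factor, and 8 genes known as targets of the coactivator YAP with TEAD factors: Ctgf (also named Ccn2), Cyr61 (also named Ccn1), Thbs1, Ankrd1, Axl, Amotl2, Ajuba and Lats2. They were 9 of the 39017 genes in a table of poly(A) RNA-seq from mouse embryonic stem cells (mESCs), and the list was chosen by measured values in that Thbs1 was among the genes with the lowest log2 fold change between 2i and serum in these libraries. Each of the 4 groups, made up of 2 lines in 2 media, had 3 biological replicates, for 12 libraries in all. The wild-type line J1 is male. 3B3L, which the labels write as 3B3-3l, is a Dnmt3a-/- Dnmt3b-/- line that carries a Dnmt3b transgene under the constitutive CAG promoter and a CAG-driven Dnmt3l-Flag transgene selected with blasticidin. The media were serum plus LIF, and 2i, which is a defined medium that holds LIF, 1 µM PD0325901 (an inhibitor of MEK) and 3 µM CHIR99021 (an inhibitor of GSK3). In serum, J1 cells grew on mitomycin C-inactivated SNLP feeder cells that were depleted by repeated plating, whereas 3B3L cells were plated on gelatin. Feeders were thus used for J1 in serum only, so that growth surface cannot be told apart from line in serum, from medium within J1, or from the difference of the 2i effects between the lines. The labels give 500 U/ml LIF in serum and 1000 U/ml in 2i, whereas the methods of the study name the same dose for both, so the dose in serum is uncertain, and by the labels it cannot be told apart from medium. Whether 3B3L is 1 clone is not given in the sources used here.

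In the Hippo pathway, the upstream regulator NF2 and the kinases MST1/2 lead the kinases LATS1/2 to phosphorylate YAP and its relative TAZ, which keeps both out of the nucleus. Unphosphorylated YAP and TAZ enter the nucleus, bind TEAD factors at short DNA sites and raise transcription of targets that act in adhesion, matrix and cytoskeleton, with Ctgf and Cyr61 used most widely as readouts. Several targets, among them Lats2, Amotl2 and Ajuba, encode regulators of the pathway itself, so that it holds feedback loops. In the preimplantation embryo, TEAD4 with YAP is known for its part in specifying the trophectoderm.

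The smallest library summed to 37050652 estimated reads and the largest to 44515395. In CPM (counts scaled to 1000000 reads, with TMM library sizes), the endogenous Dnmt3a gene was at 29.3 to 34.3 CPM in 3B3L serum libraries against 165.7 to 167.2 in J1 serum libraries, and Dnmt3b was at 913.1 to 935.6 CPM in 3B3L 2i libraries against 41.0 to 47.2 in J1 2i libraries. Reads left from an altered Dnmt3a gene cannot be told apart here from intact transcripts. The 8 mESC markers, such as Pou5f1, Sox2, Nanog and Zfp42, were present in every library, with a summed level of 4245 to 6373 CPM.

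Promoter sequences are shown for the members in which the core TEAD site was found, since a shared site is what the name of the group refers to. The RefSeq promoter table (GRCm38.p6; 250 bases before a gene's start to 50 after it) held entries for 6 of the 9 members: Cyr61, Axl, Amotl2, Ajuba, Lats2 and Ankrd1. Ctgf, Thbs1 and Tead1 had no entry. The letters GGAATG and their reverse complement CATTCC, the core of the M-CAT element bound by TEAD factors, were searched on both strands. Each of the 6 members had at least 1 match, and Ajuba and Ankrd1 had 2. Over all genes in the table, 16.6% had a match in a window and 1.57% had 2 or more. The members were listed as TEAD targets, so this is a description. The 250 bases before the start follow for the 3 members with a match upstream and a level over 2-fold lower in 2i in both lines, 5′ to 3′ on the strand of the gene, with the matching letters in capitals.
Cyr61, chr3:145649986-145650235, minus strand: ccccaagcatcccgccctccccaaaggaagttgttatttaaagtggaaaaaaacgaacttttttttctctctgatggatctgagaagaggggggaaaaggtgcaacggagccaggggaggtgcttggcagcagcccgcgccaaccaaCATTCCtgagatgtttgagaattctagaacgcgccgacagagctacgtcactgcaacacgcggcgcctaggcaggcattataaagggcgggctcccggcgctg
Ajuba, chr14:54577662-54577911, minus strand: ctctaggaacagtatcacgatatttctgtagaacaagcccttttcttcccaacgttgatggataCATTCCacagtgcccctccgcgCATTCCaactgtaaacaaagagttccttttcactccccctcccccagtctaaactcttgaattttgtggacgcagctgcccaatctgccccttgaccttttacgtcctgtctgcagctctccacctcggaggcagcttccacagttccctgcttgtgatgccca
Ankrd1, chr19:36119845-36120094, minus strand: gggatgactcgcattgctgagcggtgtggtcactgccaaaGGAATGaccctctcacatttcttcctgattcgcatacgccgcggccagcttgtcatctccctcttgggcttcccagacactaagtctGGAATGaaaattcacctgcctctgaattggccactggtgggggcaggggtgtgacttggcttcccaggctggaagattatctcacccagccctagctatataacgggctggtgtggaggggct

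With positions counted from the start (the first base before it being -1), the match in Cyr61 began at -103, those in Ajuba at -186 and -164, and those in Ankrd1 at -210 and -123. The other 3 members are shown as 30 bases around the match, again in capitals, because their levels differed less between media. The matches began at -65 in Amotl2, at -233 in Axl and at 5, after the start, in Lats2. In Lats2 it lay in 1 of the 2 windows that the table lists. For Amotl2, Axl and Lats2 the start in the promoter table lies inside the whole-gene coordinates given below, so these positions are not distances from the end of the gene, and the match in Amotl2 lies within its gene.
Amotl2, chr9:102717727-102717756, plus strand: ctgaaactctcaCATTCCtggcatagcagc
Axl, chr7:25788949-25788978, minus strand: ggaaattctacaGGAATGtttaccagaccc
Lats2, chr14:57746102-57746131, minus strand: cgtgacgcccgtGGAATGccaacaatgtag

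All 9 members passed the filter on low counts that left 17885 genes for testing, but Thbs1 and Ankrd1 had fewer than 10 counts in every 2i library and passed through their serum libraries. The fold changes between 2i and serum are given as a description with no test, because the list was made with them in view. For the same reason nothing is read from the number of members past an adjusted p of 0.05 in the model, Thbs1 and Ankrd1 included: 7 of 9 in J1 (6 lower and 1 higher), where 66.1% of all tested genes passed, and 7 of 9 in 3B3L (6 lower and 1 higher), where 65.4% did. The median log2 fold change of the members was -1.79 in J1 and -1.33 in 3B3L, which is the value of Ajuba in both lines, beside medians of 0.014 and 0.0091 over all tested genes. The plot of CPM by library shows the 9 genes side by side.

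**Figure D1:**
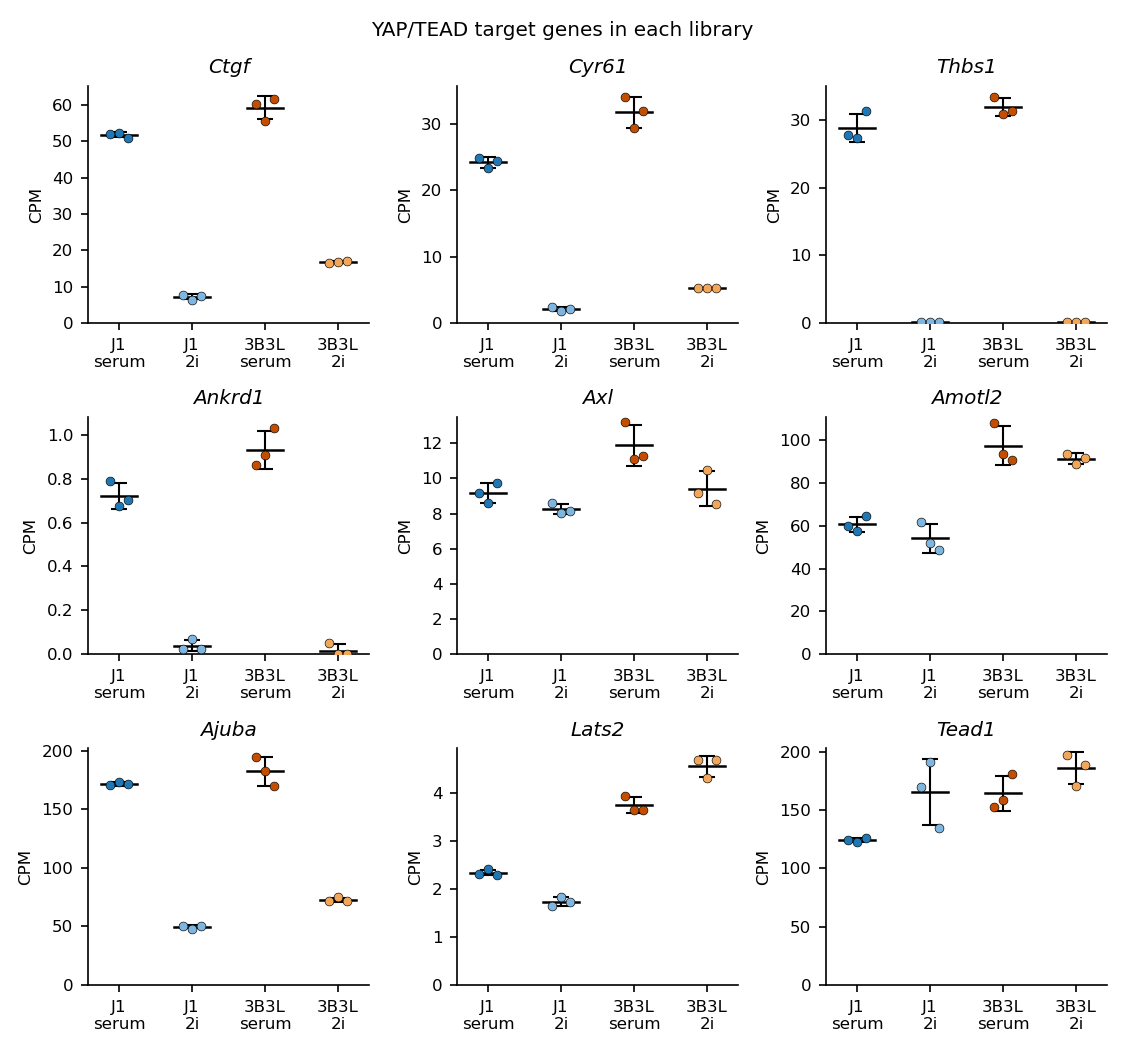
CPM (counts scaled to 1000000 reads, linear axes from 0) of the 9 genes in each of the 12 libraries, by line and medium. Points are libraries, horizontal bars are group means and error bars are SD (n = 3). Ctgf, Cyr61, Thbs1, Ankrd1 and Ajuba were lower in 2i in both lines, whereas Amotl2 and Lats2 separated by line.

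Tead1, the member that encodes a transcription factor (chr7:112679356-112906784 in GRCm38.p6), was lowest in J1 serum cells. In J1 it stood at 124.5, 122.4 and 126.2 CPM in serum and at 170.0, 190.9 and 134.8 CPM in 2i. In 3B3L it stood at 152.8, 158.4 and 181.2 CPM in serum and at 197.4, 170.8 and 189.0 CPM in 2i. The J1 serum libraries lay below all others, and the other 3 groups overlapped one another. The log2 difference between 2i and serum was 0.41 ± 0.10 (SE) in J1 and 0.18 ± 0.10 in 3B3L. Tead1 was higher in 3B3L than in J1 in serum, by 0.40 ± 0.10 on the log2 scale (adjusted p = 0.00443, edgeR quasi-likelihood test, as for every adjusted p below unless another is named). In 2i the log2 difference between lines was 0.17 ± 0.10 (adjusted p = 0.176).

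The value of Tead1 in 2i leaned on single libraries and on transcript lengths. Without J1 2i replicate 2, the library with the highest J1 level, the line difference in 2i was 0.28 with an adjusted p of 0.0183. With an offset for the mean length of the transcripts used in each library, it was -0.019. Subtracting the 2i effect in J1 from that in 3B3L gave -0.23 ± 0.14 (adjusted p = 0.213), and it passed the threshold with length offsets (-0.45, adjusted p = 0.0307) and without J1 2i replicate 3 (-0.36, adjusted p = 0.0119).

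Among the secreted proteins, Ctgf (chr10:24595442-24598683) encodes a matricellular protein of the CCN family. In J1 it stood at 52.2, 52.3 and 51.0 CPM in serum and at 7.77, 6.47 and 7.39 CPM in 2i. In 3B3L it stood at 60.3, 55.6 and 61.8 CPM in serum and at 16.5, 16.8 and 17.0 CPM in 2i. The 4 groups did not overlap, in the order 3B3L serum, J1 serum, 3B3L 2i and J1 2i. In 2i, Ctgf was 7.19-fold lower than in serum in J1 (log2 fold change -2.85 ± 0.07) and 3.53-fold lower in 3B3L (-1.82 ± 0.06).

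Cyr61 (chr3:145646971-145649985), a CCN family paralog of Ctgf, had the same order of groups. In J1 it stood at 24.96, 23.3 and 24.5 CPM in serum and at 2.44, 1.81 and 2.17 CPM in 2i. In 3B3L it stood at 34.1, 29.4 and 31.9 CPM in serum and at 5.29, 5.33 and 5.31 CPM in 2i, and again no group overlapped another. In 2i it was 11.3-fold lower than in serum in J1 (log2 fold change -3.50 ± 0.09) and 5.99-fold lower in 3B3L (-2.58 ± 0.08).

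Both CCN genes were higher in 3B3L than in J1 in both media. The difference between lines in 2i was 1.22 ± 0.07 on the log2 scale for Ctgf (adjusted p = 2.45e-09) and 1.31 ± 0.10 for Cyr61 (adjusted p = 7.9e-08), or 2.33-fold and 2.48-fold. In serum it was 0.39 ± 0.07 for Cyr61 (adjusted p = 0.000454) and 0.19 ± 0.06 for Ctgf (adjusted p = 0.0159). The call for Ctgf in serum did not hold without J1 serum replicate 3 (0.18, adjusted p = 0.0547), without 3B3L serum replicate 3 (0.16, adjusted p = 0.0689) or with no filter on low counts (0.17, adjusted p = 0.053).

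The 2i effect itself also differed between lines for both CCN genes. The difference of the log2 fold changes, 3B3L minus J1, was 1.02 ± 0.09 for Ctgf (adjusted p = 7.28e-07) and 0.92 ± 0.13 for Cyr61 (adjusted p = 5.29e-05). Both 2i effects were negative in both lines, so the positive difference means a smaller gap between media in 3B3L. These contrasts share libraries with the line comparisons above and are not separate evidence.

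Thbs1 (chr2:118111876-118127133) encodes thrombospondin 1, a matricellular glycoprotein that binds matrix, platelets and latent TGF-beta. It stood at 27.8, 27.4 and 31.3 CPM in J1 serum libraries and at 33.4, 30.9 and 31.4 CPM in 3B3L serum libraries, and these ranges overlapped. In 2i it stood at 0.0911, 0.115 and 0.146 CPM in J1 and at 0.144, 0.162 and 0.155 CPM in 3B3L, from 4 to 7 counts in a library. The summed counts went from 3457 in serum to 15 in 2i in J1, a ratio of 246 (exact 95% counting interval 149 to 440), and from 3791 to 19 in 3B3L, a ratio of 207 (132 to 344). These intervals cover counting error only. In the model the log2 fold change was -7.91 ± 0.13 in J1. In 3B3L it was -7.67 ± 0.12, and the line difference of 0.24 ± 0.35 is given with no test.

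The log2 difference of Thbs1 between lines, 3B3L minus J1, was 0.15 ± 0.06 in serum (adjusted p = 0.0799). In 2i, where Thbs1 was near the floor and the ranges of the lines overlapped, the fitted difference was 0.39 ± 0.35 and is given with no test. Without J1 serum replicate 3, the highest of the J1 serum libraries, the serum difference was 0.21 with an adjusted p of 0.0232.

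Ankrd1 (chr19:36111965-36119844), which encodes the ankyrin repeat protein CARP, was the member with the lowest level per length in serum. It had 33, 28 and 26 counts in J1 serum libraries (0.788, 0.675 and 0.705 CPM) and 33, 38 and 40 counts in 3B3L serum libraries (0.861, 0.908 and 1.03 CPM). In 2i it had 1, 3 and 1 counts in J1 and 2, 0 and 0 counts in 3B3L. Summed counts of 87 in serum and 5 in 2i gave a ratio of 18.6 in J1 (exact 95% counting interval 7.67 to 58.7), and those of 111 and 2 gave a ratio of 57.6 in 3B3L (15.6 to 482). Each line's interval held the ratio of the other line. No fold is given between lines in 2i, where both were at or under 3 counts in a library. In serum the log2 difference between lines was 0.37 ± 0.27 (adjusted p = 0.304).

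Axl (chr7:25756500-25788924), the receptor tyrosine kinase for the ligand GAS6, varied little. The J1 libraries held it at 9.15, 8.58 and 9.73 CPM in serum and at 8.59, 8.06 and 8.15 CPM in 2i. The 3B3L libraries held it at 13.2, 11.1 and 11.3 CPM in serum and at 9.18, 10.5 and 8.56 CPM in 2i. The 3B3L serum libraries lay above all others, and the other 3 groups overlapped in part. The log2 difference between lines was 0.38 ± 0.09 in serum (adjusted p = 0.0038) and 0.19 ± 0.09 in 2i (adjusted p = 0.107). The log2 difference between 2i and serum was -0.15 ± 0.09 in J1 and -0.33 ± 0.09 in 3B3L.

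The direction of the 2i values of Axl was not stable to the treatment of transcript lengths. With length offsets they were 0.22 in J1 and 0.063 in 3B3L. The share of Axl reads that the authors' quantification gave to a short transcript, Axl-008, was 2.21% ± 0.96 (SD, n = 3) in J1 serum and 6.42% ± 1.37 in J1 2i, and 3.01% ± 0.53 and 7.06% ± 0.96 in 3B3L. Its effective length was 432 bases, against 4094 for the main transcript Axl-001.

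The 3 members that encode pathway regulators differed from one another. Ajuba (chr14:54567469-54577661), a LIM protein that binds LATS kinases and limits their activity, stood in J1 at 170.5, 173.3 and 171.2 CPM in serum and at 50.7, 48.1 and 50.3 CPM in 2i. In 3B3L it stood at 194.8, 182.9 and 170.1 CPM in serum and at 71.6, 75.0 and 71.3 CPM in 2i. The serum groups overlapped, whereas the 2i groups lay apart from them and from each other.

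In 2i, Ajuba was 3.45-fold lower than in serum in J1 (log2 fold change -1.79 ± 0.05) and 2.51-fold lower in 3B3L (-1.33 ± 0.05). Between lines it was higher in 3B3L in 2i by 0.55 ± 0.05 (adjusted p = 5.97e-07), and in serum the log2 difference was 0.09 ± 0.05 (adjusted p = 0.179). Without 3B3L serum replicate 3, the lowest of its group, the serum difference was 0.14 with an adjusted p of 0.048. The 2i effects of the lines differed by 0.46 ± 0.07 (adjusted p = 0.000185).

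Amotl2 (chr9:102717091-102733418), an angiomotin family protein that holds YAP at junctions, separated by line and not by medium. In J1 it stood at 60.1, 57.7 and 64.6 CPM in serum and at 61.7, 52.0 and 48.7 CPM in 2i. In 3B3L it stood at 108.0, 93.7 and 90.8 CPM in serum and at 93.7, 89.0 and 91.9 CPM in 2i. The media overlapped within each line, and every 3B3L library lay above every J1 library. The log2 difference between lines was 0.68 ± 0.08 in serum (adjusted p = 8.81e-06) and 0.76 ± 0.08 in 2i (adjusted p = 1.99e-06). The log2 difference between 2i and serum was -0.17 ± 0.08 in J1 and -0.09 ± 0.08 in 3B3L, or 0.20 in 3B3L with length offsets.

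Lats2 (chr14:57689662-57746212), a kinase that phosphorylates YAP and TAZ, had media differences of opposite sign in the 2 lines. In J1 it stood at 2.32, 2.41 and 2.30 CPM in serum and at 1.64, 1.84 and 1.73 CPM in 2i. In 3B3L it stood at 3.94, 3.66 and 3.66 CPM in serum and at 4.69, 4.31 and 4.69 CPM in 2i. No group overlapped another, and the order was 3B3L 2i, 3B3L serum, J1 serum and J1 2i.

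The log2 difference of Lats2 between 2i and serum was -0.43 ± 0.11 in J1 and 0.28 ± 0.10 in 3B3L, and the 2i effects of the lines differed by 0.72 ± 0.15 (adjusted p = 0.00158). Lats2 was higher in 3B3L in serum by 0.68 ± 0.10 (adjusted p = 9.91e-05) and in 2i by 1.39 ± 0.10, or 2.63-fold (adjusted p = 4.26e-08). With length offsets the 2i value was -0.03 in J1 and 0.60 in 3B3L. The share of Lats2 reads on the long transcript Lats2-001 was 68.1% ± 7.8 in J1 serum and 47.8% ± 7.3 in J1 2i (SD, n = 3), and 73.4% ± 3.0 and 74.0% ± 7.3 in 3B3L.

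**Figure D2:**
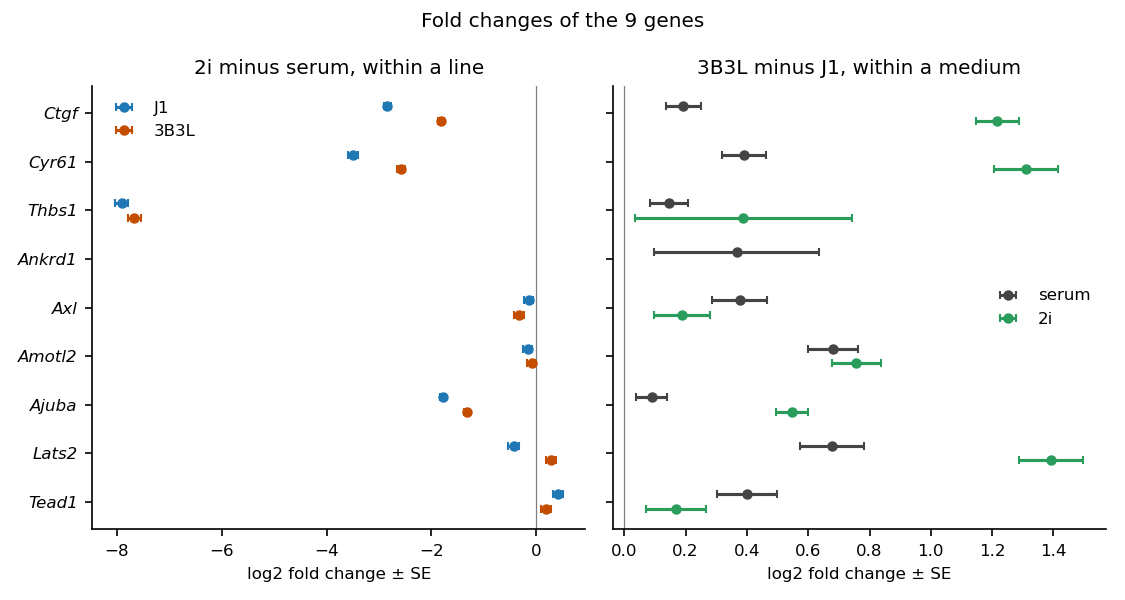
Log2 fold changes ± SE from the model over 12 libraries for the 9 genes, with 2i minus serum within each line on the left and 3B3L minus J1 within each medium on the right. Ankrd1 is shown for the serum comparison only, since it had at most 3 counts in each 2i library. All values shown on the right are positive, from 0.09 for Ajuba in serum to 1.39 for Lats2 in 2i. The fitted value left out there, for Ankrd1 in 2i, is negative. The values for Ctgf, Cyr61, Ajuba and Lats2 are larger in 2i than in serum.

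Counted over the group, 6 of the 9 members differed between lines in serum, all higher in 3B3L (Ctgf, Cyr61, Axl, Amotl2, Lats2 and Tead1), where 38.7% of all tested genes were called, 21.5% higher and 17.2% lower. In 2i, 5 of the 9 differed, all higher in 3B3L (Ctgf, Cyr61, Amotl2, Ajuba and Lats2), where 45.9% of all tested genes were called, 23.0% higher and 22.9% lower. Of the other 4, Thbs1 and Ankrd1 had fewer than 10 counts in every 2i library. The median log2 difference of the members was 0.38 in serum and 0.55 in 2i, beside 0.031 and 0.010 over all tested genes. The 2i effects of the lines differed for 4 of the 9 (Ctgf, Cyr61, Ajuba and Lats2), all with the higher value in 3B3L, where 34.7% of all tested genes were called and 16.3% were called with the higher value in 3B3L.

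Levels of different genes were compared as CPM per kilobase of effective transcript length. In serum, Ajuba had the highest level per length of the 9, at 51.5 ± 0.4 (SD, n = 3) in J1 and 54.9 ± 3.6 in 3B3L, and Ankrd1 had the lowest, at 0.452 ± 0.038 and 0.588 ± 0.058. In J1 2i cells Tead1 ranked first at 24.4 ± 4.8, followed by Amotl2 at 21.3 ± 3.0, and these overlapped. In 3B3L 2i cells Amotl2 ranked first at 39.8 ± 2.9, above Tead1 at 23.9 ± 1.8. Thbs1 went from 5.11 ± 0.43 per length in J1 serum to 0.0207 ± 0.0049 in J1 2i. The ranks were the same when the deposited TPM values were used.

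**Figure D3:**
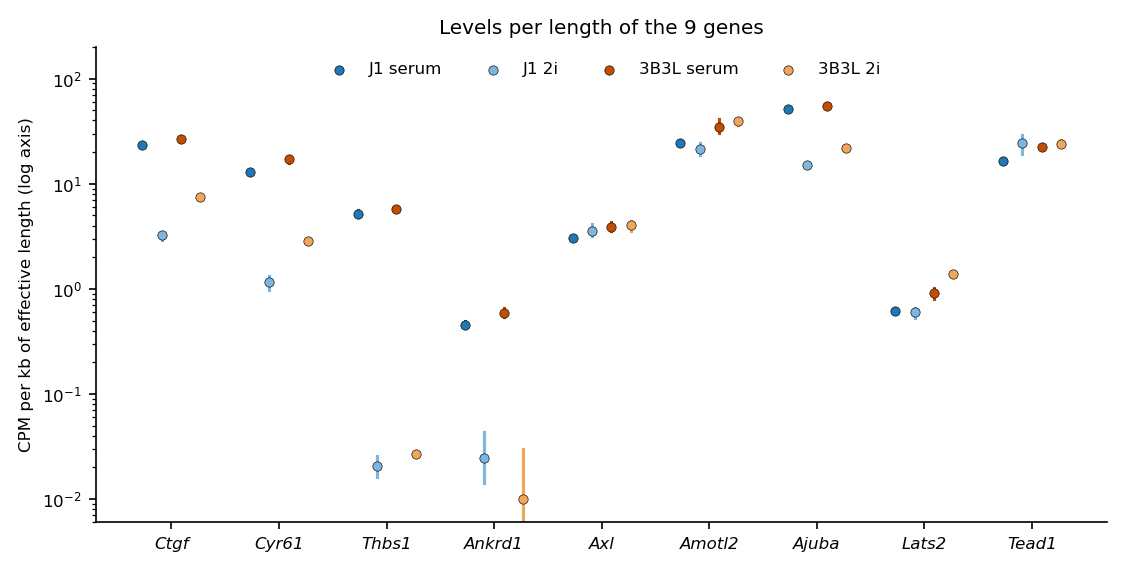
Level per length (CPM per kilobase of effective transcript length, log axis) of the 9 genes in the 4 groups. Points are group means and vertical lines span the lowest to the highest of 3 libraries, cut at the lower edge of the plot where a library was at 0. The 2i means of Thbs1 and Ankrd1 lie between 0.0100 and 0.0270, far below their serum means. The means of Amotl2, Axl, Lats2 and Tead1 lie closer together in the media on this axis. Even so, the media did not overlap for Lats2 in 3B3L (means of 0.912 in serum and 1.38 in 2i) or Tead1 in J1 (16.5 and 24.4).

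TEAD1 is 1 of 4 TEAD factors, and the other factors and the coactivators are not in the list of 9. Their media comparisons were tested, but the lists were made with earlier results of these data known, so the tests are not independent of them. Tead4 rose in 2i, from 24.3 ± 1.5 CPM (SD, n = 3) to 94.7 ± 2.4 in J1 (log2 fold change 1.96 ± 0.05, adjusted p = 5.04e-14) and from 29.1 ± 1.0 to 71.2 ± 0.8 in 3B3L (1.29 ± 0.05, adjusted p = 4.23e-12). Tead2 was the most abundant TEAD gene per length in every group, at 70.2 to 78.9 CPM per kilobase. It rose in J1 2i by 0.27 ± 0.06 (adjusted p = 0.000992), a call that did not hold with length offsets (0.11, adjusted p = 0.24). Tead3, the lowest of the 4, fell in 2i in 3B3L by 0.72 ± 0.11 on the log2 scale (adjusted p = 1.82e-05).

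The coactivators moved in opposite directions. Yap1 fell in 2i, from 151.6 ± 2.1 to 121.8 ± 3.1 CPM in J1 (log2 fold change -0.32 ± 0.04, adjusted p = 3.96e-06) and from 161.6 ± 2.5 to 124.2 ± 0.9 CPM in 3B3L (-0.38 ± 0.04, adjusted p = 4.62e-07). Wwtr1, which encodes TAZ, rose from 24.8 ± 0.6 to 52.8 ± 2.3 CPM in J1 (1.09 ± 0.05, adjusted p = 4.14e-11) and from 33.7 ± 1.5 to 68.5 ± 1.5 CPM in 3B3L (1.02 ± 0.05, adjusted p = 5.85e-11). Per length, Yap1 remained above Wwtr1 in each group, at 36.6 against 11.7 CPM per kilobase in J1 2i. Protein level, phosphorylation and location of YAP and TAZ were not measured.

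**Figure D4:**
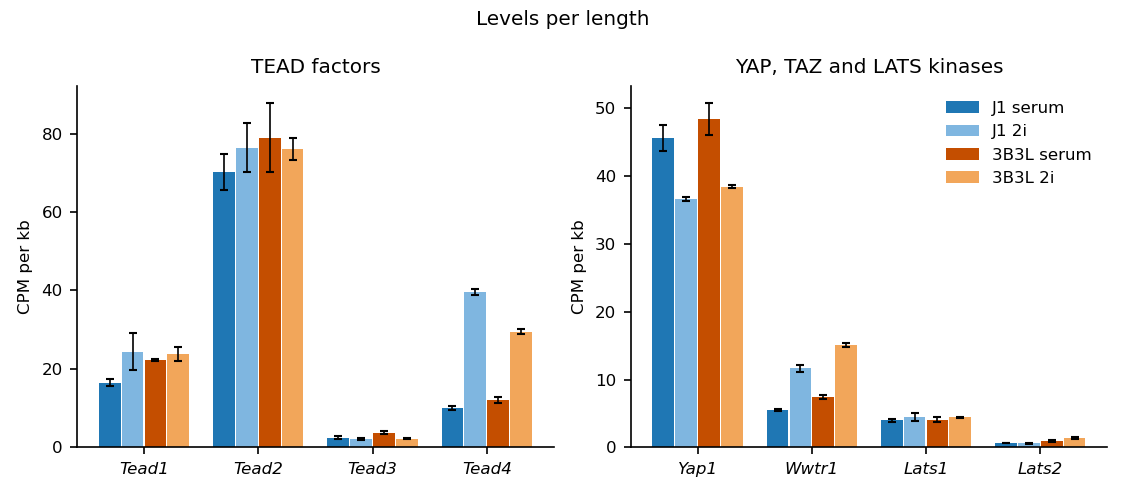
Level per length (CPM per kilobase, linear axes from 0) of the 4 TEAD genes on the left and of Yap1, Wwtr1 (TAZ), Lats1 and Lats2 on the right, by line and medium. Bars are means and error bars are SD (n = 3 libraries). Tead4 and Wwtr1 rise in 2i in both lines while Yap1 falls, and Tead2 is the highest TEAD gene in each group.

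Of 28 further genes of the Hippo pathway, 27 were tested and Fat4 was not. In 2i, 20 changed in J1, of which 8 rose and 12 fell, and 21 changed in 3B3L, of which 8 rose and 13 fell, beside 66.1% and 65.4% of all tested genes. The median log2 fold changes were -0.11 and -0.08. Beside Tead4 and Wwtr1, the kinase adaptor Mob1a and the FERM protein Frmd6 rose in both lines, Frmd6 by 1.30 ± 0.06 in J1 (adjusted p = 1.31e-11) and 0.79 ± 0.06 in 3B3L (adjusted p = 4.19e-09). The angiomotin Amot, a relative of Amotl2, fell from 13.6 ± 0.5 to 2.69 ± 0.44 CPM in J1 (-2.34 ± 0.11, adjusted p = 3.56e-11) and from 18.1 ± 2.1 to 2.89 ± 0.20 CPM in 3B3L (-2.65 ± 0.11, adjusted p = 5.67e-12). The atypical cadherin Dchs1 and the TEAD cofactor Vgll3 fell in both lines from levels of 1.62 to 3.38 CPM. The kinase Lats1, unlike Lats2, was close to the threshold in J1 2i (0.20 ± 0.08, adjusted p = 0.0406), and 7 alternatives that kept all the libraries compared did not call it, with adjusted p of 0.0548 to 0.113. It was not called either without J1 serum replicate 2 or 3, J1 2i replicate 1 or 2, or 3B3L 2i replicate 2 or 3, with adjusted p of 0.0511 to 0.144.

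Between lines in serum, 18 of the 27 Hippo genes differed, 15 of them higher in 3B3L, with a median log2 difference of 0.29, where 38.7% of all tested genes differed and 21.5% were higher. Tead3 was higher by 0.61 ± 0.11 (adjusted p = 0.000297), while Nf2, the upstream tumor suppressor, was lower by 0.27 (log2 difference -0.27 ± 0.04, adjusted p = 0.000139), as was Wwc1 (-0.33 ± 0.05, adjusted p = 0.000215). In 2i, 16 differed (9 higher, 7 lower), with a median of 0.03, where 45.9% of all tested genes differed. The large cadherin Fat1 was higher in 3B3L in 2i, at 406.6 ± 17.7 against 198.7 ± 21.0 CPM (1.03 ± 0.08, adjusted p = 7.71e-08). The angiomotin Amotl1 was lower, at 13.7 ± 1.1 against 25.8 ± 1.8 CPM (-0.91 ± 0.07, adjusted p = 4.48e-08), the opposite direction to Amotl2.

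**Figure D5:**
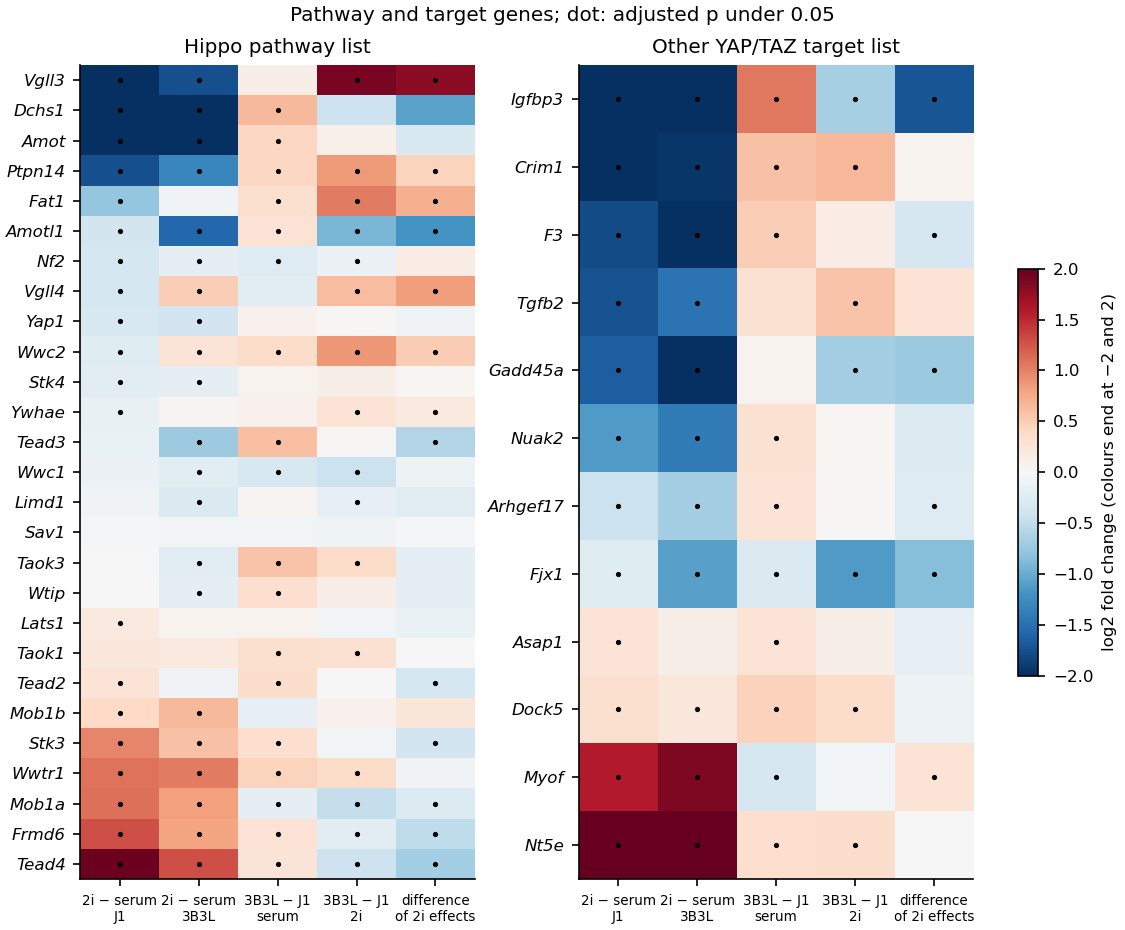
Log2 fold changes of 27 tested Hippo pathway genes (left) and 12 tested further YAP/TAZ target genes (right) in 5 contrasts, with genes ordered by the value in J1. Colours end at -2 and 2, and dots mark an adjusted p under 0.05. In 2i, Tead4, Frmd6 and Wwtr1 rise and Vgll3, Dchs1 and Amot fall in both lines, and most target genes fall while Nt5e and Myof rise.

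A second list held 15 further genes known as YAP/TAZ targets, of which Ccdc80, Foxf2 and Rbms3 were too low to be tested. All 12 tested genes changed in J1 2i, 4 up and 8 down, and 11 changed in 3B3L 2i, 3 up and 8 down, beside 66.1% and 65.4% of all tested genes. The median log2 fold changes were -0.78 and -1.24. Igfbp3, an insulin-like growth factor binding protein, fell from 32.9 ± 0.9 to 5.51 ± 0.53 CPM in J1 (-2.58 ± 0.08, adjusted p = 1.17e-13) and from 68.2 ± 2.8 to 3.47 ± 0.35 CPM in 3B3L (-4.30 ± 0.08, adjusted p = 9.65e-16). Crim1 had log2 fold changes of -2.02 ± 0.12 in J1 (adjusted p = 6.54e-10) and -1.95 ± 0.11 in 3B3L (adjusted p = 3.08e-10). Gadd45a, a stress-response gene, had -1.66 ± 0.06 in J1 (adjusted p = 1.58e-12) and -2.41 ± 0.06 in 3B3L (adjusted p = 3.52e-14). The genes of this list named here and in the next paragraph were picked as called genes at its ends, so their adjusted p is a description.

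Not every target on that list moved down in 2i. Nt5e, the ecto-nucleotidase CD73, rose from 2.09 ± 0.18 to 10.9 ± 0.2 CPM in J1 (2.39 ± 0.09, adjusted p = 1.64e-12) and from 2.65 ± 0.19 to 14.0 ± 0.6 CPM in 3B3L (2.40 ± 0.08, adjusted p = 7.26e-13). Myof, which encodes myoferlin, rose from 78.2 ± 4.1 to 234.3 ± 14.0 CPM in J1 (1.58 ± 0.06, adjusted p = 2.54e-12) and from 62.2 ± 4.7 to 226.0 ± 2.1 CPM in 3B3L (1.86 ± 0.06, adjusted p = 3.43e-13).

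Between lines, genes of the second target list differed in both directions. In serum 10 of the 12 differed (8 higher in 3B3L, 2 lower) and in 2i 7 did (4 higher, 3 lower), beside 38.7% and 45.9% of all tested genes. The medians were 0.30 and 0.08. Ctgf and Cyr61 had less negative log2 fold changes between 2i and serum in 3B3L than in J1. Of the 6 called genes of this list, 5 had more negative ones in 3B3L (Igfbp3, Fjx1, F3, Gadd45a and Arhgef17). Myof rose more in 3B3L. Over all tested genes, 34.7% were called in this contrast, 18.3% with the lower value in 3B3L. F3 and Arhgef17 lay close to the threshold (adjusted p = 0.047 for both). Without J1 2i replicate 1, 3 genes of this list were called in place of 6. For Igfbp3 the difference of the 2i effects was -1.72 ± 0.11 (adjusted p = 4.07e-08).

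Relatives of the members were described alongside them, and 8 of 10 were tested, Wisp2 and Ankrd2 being too low. In 2i, 7 changed in J1, of which 6 fell, and 6 changed in 3B3L, of which 5 fell, beside 66.1% and 65.4% of all tested genes. Thbs3 fell from 15.2 ± 0.3 to 3.89 ± 0.29 CPM in J1 (-1.96 ± 0.09, adjusted p = 1.2e-11) and from 18.2 ± 0.9 to 2.77 ± 0.35 CPM in 3B3L (-2.71 ± 0.09, adjusted p = 3.44e-13), and Thbs2 fell in both lines from means of 0.840 and 1.74 CPM. The CCN gene Wisp1 fell in J1 from 1.54 ± 0.46 to 0.521 ± 0.113 CPM (-1.56 ± 0.26, adjusted p = 7.38e-05). In 3B3L it fell from 1.58 ± 0.12 to 0.789 ± 0.236 CPM (-0.99 ± 0.25, adjusted p = 0.00228).

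Among the relatives of Axl, Mertk fell in 2i in both lines, by 1.19 ± 0.13 in J1 (adjusted p = 6.03e-07) and by 1.96 ± 0.13 in 3B3L (adjusted p = 1.44e-09) on the log2 scale, and Tyro3, the most abundant of the 3 receptor genes by CPM, rose by 0.45 ± 0.05 in J1 (adjusted p = 1.85e-06). In 3B3L Tyro3 rose by 0.14 ± 0.05 (adjusted p = 0.0297), a call not made with the replicate number as a block. The ligand gene Gas6 fell from 23.1 ± 2.0 to 8.70 ± 0.85 CPM in J1 (-1.41 ± 0.08, adjusted p = 2.33e-10) and from 27.9 ± 1.0 to 19.2 ± 0.4 CPM in 3B3L (-0.54 ± 0.07, adjusted p = 8.82e-06). In 2i, Gas6 was higher in 3B3L by 1.15 ± 0.08 (adjusted p = 1.82e-08).

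The 5 genes whose pattern over the 12 libraries was most like that of Thbs1, by Pearson correlation of log2(CPM + 1) among 10135 genes, were the imprinted RNA H19, Arap3, Acta2, Gbp2 and Sema3e, with r of 0.9990 to 0.9995. The libraries fall into media for all of these genes, so the r reflects a difference between 2 clusters. H19 stood at means of 67.0 and 69.1 CPM in J1 and 3B3L serum and 0.078 and 0.015 CPM in 2i. Acta2, smooth muscle actin, stood at 10.97 and 13.1 CPM in serum and 0.031 and 0.098 CPM in 2i.

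Other cell types can express Ctgf, Cyr61 and Thbs1, and in bulk samples fewer cells of a type and less RNA per cell cannot be told apart. The summed level of 16 fibroblast markers was 90.9 to 97.9 CPM in J1 serum, 43.9 to 45.3 in J1 2i, 128.5 to 151.0 in 3B3L serum and 31.8 to 33.2 in 3B3L 2i. All 11 tested fibroblast markers were called in J1 2i (1 higher, 10 lower), and 10 were called lower in 3B3L 2i. Over all tested genes, 66.1% were called in J1 and 65.4% in 3B3L. The marker called higher in J1 was Pdgfrb, whose mean rose from 6.31 to 19.45 CPM, the largest part of the J1 2i sum. Pdgfrb was not called in 3B3L, where its mean went from 7.39 to 7.33 CPM. The collagen genes Col1a1 and Col5a1 made up most of the sum in serum, at means of 28.1 and 25.8 CPM in J1 and 35.5 and 44.9 CPM in 3B3L, with Thy1 at 11.3 and 14.1 CPM. Twist2 was at 0.26 and 0.31 CPM in J1 and 3B3L serum, Dcn at 0.091 and 0.17 CPM, and Lum at 0 in J1 serum. All 3 were at 0 in the 2i libraries of both lines, and no other fibroblast marker was. Other low markers varied. In J1, Prrx1 was at 0.099 CPM in serum and 0.078 in 2i, Fap at 0.025 and 0.032, and Postn at 0.13 and 0.0076. In 3B3L, Prrx1 was at 0.10 and 0.025 CPM, Fap at 0.042 and 0.024, and Postn at 0.13 and 0.0077.

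Primitive endoderm markers (13 genes) summed to 335.6 to 380.3 CPM in J1 serum, 215.0 to 235.3 in J1 2i, 425.1 to 433.9 in 3B3L serum and 201.0 to 201.5 in 3B3L 2i. Smooth muscle markers (8 genes, among them Acta2 and Tagln) summed to 84.0 to 85.2, 11.8 to 14.7, 81.2 to 97.0 and 10.6 to 12.2 CPM in the same order, and all 7 that were tested fell in 2i in both lines. Trophoblast markers (10 genes) summed to 167.2 to 179.4, 195.5 to 225.1, 256.6 to 308.6 and 199.2 to 205.8 CPM, and in each line 3 of the 10 rose in 2i (Cdx2, Eomes and Krt8) and 6 fell (Ascl2, Gata3, Hand1, Krt7, Krt18 and Tfap2c). Of the 13 primitive endoderm markers, 3 rose in J1 2i (Gata4, Lama1 and Sox17) and 7 fell, and in 3B3L 2i 10 fell and 0 rose. Beside these counts, 66.1% of all tested genes were called between media in J1 and 65.4% in 3B3L. In J1, serum cells had Eomes at 2.86 ± 0.14 CPM and Cdx2 at 0.36 ± 0.13 CPM, against 28.1 ± 2.5 and 1.34 ± 0.26 CPM in 2i cells. In 3B3L, Eomes was at 3.55 ± 0.03 CPM in serum cells against 18.6 ± 0.6 CPM in 2i cells. Of the 6 trophoblast markers that fell, Krt18 went from a mean of 39.7 CPM in serum to 11.05 in 2i in J1, Ascl2 from 3.88 to 1.22 and Hand1 from 1.35 to 0.046. In 3B3L, Krt18 went from 86.7 to 12.1 CPM, Ascl2 from 8.0 to 0.77 and Hand1 from 0.58 to 0.032. The part of these cell types in the levels of the 9 genes was not tested.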

How the data were processed

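Poly(A) RNA from 12 mESC cultures was sequenced as stranded libraries. The authors quantified transcripts with Sailfish against mm10 models and summarized them with tximport to give the deposited gene table of estimated counts, with no scaling for library size. They also deposited TPM and estimated counts per transcript. Their methods name RefSeq models, whereas identifiers are those of Ensembl. Estimated counts were rounded. Genes were kept with filterByExpr, scaled by TMM factors of 0.97 to 1.04 and tested with edgeR 4.0.16 (R 4.3.3) quasi-likelihood fits with 1 coefficient per group and Benjamini-Hochberg adjustment over 17885 genes. The biological coefficient of variation was 6.49%. The code was tested on simulated data. In TPM, transcripts under 50 effective bases held 18.8% to 50.2% of a library, so levels per length used counts.

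The members and lists were chosen with earlier results of these data known. Named genes are the 9 members, 12 pathway genes, 10 relatives, and, per list and contrast, up to 2 called genes at each end of the log2 fold changes, given a group mean of 1 CPM or more. A gene named through a contrast was called in it by choice, so its adjusted p there is a description. Genes like Thbs1 needed a group mean of 10 CPM or more. The other genes given by name in counts were chosen after their values were seen. Coordinates and promoters are from RefSeq (GRCm38.p6). Replicates differed beyond sampling noise. Alternatives were DESeq2 1.42.0 size factors and Wald test, no filter on low counts, a filter of 10 counts in every library, the replicate number as a block, length offsets, a fit to the 6 libraries compared, TPM, and leaving out each library. Which sequencing pool held which library is not given in the sources used here, and pools were not compared.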

Additional observations from a re-analysis of the deposited data

Results flagged for a closer look

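The effect of 2i differed between lines, by the test of the difference itself, for 21 of the genes chosen by the naming rule, leaving out Thbs1 and the genes picked for their likeness to it. Over all tested genes, 34.7% were called in this contrast. The naming rule took called genes from each contrast, this one included, so nothing is read from the number. Values are log2 fold changes in 3B3L minus those in J1 (± SE, adjusted p from edgeR). Of the 9 members, Ctgf gave 1.02 ± 0.09 (adjusted p = 7.28e-07), Cyr61 0.92 ± 0.13 (5.29e-05), Lats2 0.72 ± 0.15 (0.00158) and Ajuba 0.46 ± 0.07 (0.000185). In CPM, the Lats2 2i libraries lay below the serum libraries in J1 and above them in 3B3L. Per kilobase of effective length, the J1 media overlapped, at 0.608 to 0.612 CPM in serum and 0.526 to 0.657 in 2i. The 3B3L media stayed apart per length, at 0.794 to 1.014 and 1.286 to 1.472.

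Of the pathway genes, Vgll3 gave 1.79 ± 0.26 (adjusted p = 8.88e-05) and Vgll4 gave 0.83 ± 0.13 (0.000137). Amotl1 gave -1.20 ± 0.09 (2.21e-07), Tead4 -0.67 ± 0.07 (6.14e-06), Tead3 -0.59 ± 0.15 (0.00705) and Tead2 -0.35 ± 0.09 (0.00541). Fat1 gave 0.71 ± 0.11 (0.000212), Frmd6 -0.51 ± 0.08 (0.000182) and Mob1a -0.28 ± 0.08 (0.0119). The TEAD cofactor Vgll4 fell in 2i in J1 and rose in 2i in 3B3L.

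Of the other targets and relatives, Igfbp3 gave -1.72 ± 0.11 (adjusted p = 4.07e-08), Gadd45a -0.75 ± 0.09 (1.28e-05), Fjx1 -0.85 ± 0.15 (0.000386), Mertk -0.77 ± 0.18 (0.00443), Thbs3 -0.75 ± 0.13 (0.000315) and Tyro3 -0.31 ± 0.08 (0.00489). Gas6 gave 0.87 ± 0.11 (1.81e-05) and Myof 0.28 ± 0.08 (0.0191). With transcript length offsets the calls for Tead2, Tyro3 and Mertk were not made (adjusted p of 0.301, 0.0522 and 0.0602). Myof was not called without J1 serum replicate 1 or 3, J1 2i replicate 1 or 3B3L 2i replicate 2, with adjusted p of 0.0538 to 0.0884.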

How the results depend on the processing

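Of 45 values for the members, 33 kept their direction, their side of the threshold and, where untested, their size in every alternative run, as did 818 of 834 single alternative values. With transcript length offsets the 2i value of Axl in 3B3L reversed to 0.063, the line difference of Tead1 in 2i to -0.019 and that of Thbs3 in 2i to 0.016. The 2i values of Axl in J1 and of Amotl2 in 3B3L, not called in the model, also changed sign with these offsets, as given above. The 2i value of Ankrd1 in 3B3L, which rests on 2 counts, moved from -5.60 to -8.26 without 3B3L 2i replicate 1, and its difference of 2i effects then passed the threshold (-4.14, adjusted p = 0.0493). Leaving out 1 library at a time, the number of members called ranged from 7 to 8 between media in J1, 6 to 8 in 3B3L, 6 to 6 between lines in serum, 5 to 6 in 2i and 4 to 5 for the difference of the 2i effects. For the Hippo list the ranges were 19 to 21, 19 to 22, 16 to 19, 13 to 17 and 12 to 15, and for the second target list 11 to 12, 11 to 11, 8 to 10, 6 to 8 and 3 to 6. Of 116 values for the other named genes, all of them called in the model, 95 kept their direction and their side of the threshold in every alternative run. Same-numbered replicates showed no shared deviation (correlations of -0.27 to 0.083 over 12 pairs). Pairs with different numbers had correlations of -0.275 to 0.221. With 3 replicates in a group this check cannot show whether the numbers pair the samples. With the replicate block, 11543, 11408, 6383, 7784 and 5623 genes were called in the 5 contrasts in place of 11820, 11688, 6916, 8208 and 6200, and no call of a member changed. The calls in 2i of Lats1 in J1 and of Tyro3 and Wtip in 3B3L, and the line calls in 2i of Limd1 and Nf2, were not made with the block. Where counts were at most 7 in a library (Thbs1 and Ankrd1 in 2i), depth limited what could be seen of a line difference. The cause of each change was not tested.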
